A study of Rattus norvegicus with 48 samples.

Results

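Eif4ebp1 (ENSRNOG00000012582, chromosome 16) and Eif4g3 (ENSRNOG00000014368, chromosome 5) were followed as the 2 genes of translation initiation control, out of 31998 identifiers in the table of estimated counts. They were taken by identifier, with earlier results of these data known, so that their calls and ranks below describe them and are no independent test. Both passed the low-count filter that left 16960 genes for testing. The tissue was plantaris and soleus of 24 female rats, aged 14 months, from generation 19 of lines bred for a low (LRT) or high (HRT) running response to training, with 12 rats per line. All rats had been treadmill trained earlier in life and, by the study's methods, were given puromycin shortly before the muscles were taken. In each line 6 rats had 1 hindlimb in a cast for 3 d with the foot plantar-flexed (HI), and 6 other rats had no cast (CTRL). This gave 8 groups of 6 libraries. The lines carry no engineered allele. They are selected stocks, so a difference between them belongs to these lines only. Control muscle came from other animals and not from the free limb of the cast rats. The libraries are of whole muscle, in which fewer cells of a type and less RNA per cell cannot be told apart.

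Most mRNAs in muscle are translated after the cap at their 5′ end is bound by eIF4F, a complex of the cap-binding protein eIF4E, an RNA helicase and a scaffold. Eif4g3 encodes eIF4G3 (also eIF4GII), a scaffold that holds eIF4E, the helicase and the ribosome-recruiting factor eIF3 together. Eif4ebp1 encodes 4E-BP1, a small repressor that competes with the scaffold for eIF4E and lets go of it when mTORC1 phosphorylates it. Insulin, amino acids and loading act on muscle protein synthesis largely through this kinase. The activity of 4E-BP1 rests on its phosphorylation, and mRNA levels do not report it.

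RefSeq (build GRCr8) lists 2 start regions for Eif4g3, both on the plus strand of chromosome 5, each read from 250 bases before to 50 bases after the start. They are shown because the 2 starts differ in base composition, and since the counts were summed per gene, these data do not tell transcripts of the 2 starts apart. Capitals mark each CG dinucleotide.
Eif4g3 promoter 1, chr5:155481128-155481427: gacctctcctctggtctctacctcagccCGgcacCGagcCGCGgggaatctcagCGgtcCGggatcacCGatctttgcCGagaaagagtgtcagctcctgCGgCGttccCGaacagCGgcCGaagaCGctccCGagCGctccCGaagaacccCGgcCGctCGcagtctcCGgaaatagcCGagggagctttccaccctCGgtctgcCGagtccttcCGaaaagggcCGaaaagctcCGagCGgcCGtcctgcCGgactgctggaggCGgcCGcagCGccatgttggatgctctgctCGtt
Eif4g3 promoter 2, chr5:155534242-155534541: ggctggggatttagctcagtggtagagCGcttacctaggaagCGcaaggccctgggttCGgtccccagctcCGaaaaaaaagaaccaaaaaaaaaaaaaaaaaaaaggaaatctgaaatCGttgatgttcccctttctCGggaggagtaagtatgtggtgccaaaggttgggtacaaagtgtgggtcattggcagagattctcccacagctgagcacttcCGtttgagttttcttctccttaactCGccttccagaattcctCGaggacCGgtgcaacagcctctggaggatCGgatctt
Promoter 1 had a GC content of 66% with 34 CG dinucleotides, and promoter 2 had 48.7% with 11, while the median over 33469 RefSeq start regions of this length was 51.7% and 7. Neither held TGATGNAA, the ATF4 element, or GTAAACA, the FOXO element, on either strand. Of all these regions 3.98% held the first and 3.78% the second motif. The table used here has no start region for Eif4ebp1. The primers designed in the study to measure Eif4g3 mRNA by RT-qPCR are given for the same gene, 5′ to 3′, with no part marked.
Eif4g3 forward primer: gagaagaccaggcgtccaaa
Eif4g3 reverse primer: tcttctcgtcaatggtgggc
The values of that assay are not used here.

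Library totals were between 26.8 and 36.4 M estimated counts, and RNA integrity numbers (RIN) in the labels lay between 7.8 and 8.6, the lowest of them under the bound that the study's methods state for every sample. The RIN of the labels were used. The lowest group means of RIN were those of soleus HI, 8.02 in LRT and 8.03 in HRT, and RIN was a covariate of the fit. Replicate 1 of HRT CTRL soleus stood apart most, with a mean correlation of 0.958 with its own group, where the other groups began at 0.969 or higher. Levels are given as CPM, the count of a gene relative to the TMM-scaled total count of its library, as edgeR computes it. The labelled muscles were checked by fibre markers. Mylpf, Pvalb and Atp2a1, of fast fibres, averaged 6707, 1517 and 2301 CPM in plantaris and 581, 4.79 and 201 CPM in soleus. The slow fibre genes Casq2, Fabp3 and Ankrd2 averaged 374, 910 and 887 CPM in soleus and 38.9, 248 and 75.4 in plantaris, while Pln was at 25.1 and 26.1. By the labels, soleus RNA was extracted separately, so that muscle and extraction cannot be told apart in any comparison between muscles.

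Eif4ebp1 was highest in plantaris of LRT HI, at 57.9 ± 25.0 CPM (mean ± SD, n = 6 in every group), and lowest in soleus of HRT CTRL, at 14.1 ± 1.21 CPM. From the top the order went on with HRT HI plantaris at 41.0 ± 13.7, LRT HI soleus at 34.1 ± 12.5 and HRT HI soleus at 29.7 ± 6.25 CPM. The CTRL groups followed, with LRT plantaris at 27.8 ± 4.41, HRT plantaris at 25.5 ± 4.28 and LRT soleus at 16.9 ± 3.82 CPM. The means of all 4 HI groups were thus above those of all 4 CTRL groups. The only step in this order that was larger than the larger SD of its 2 groups was that from HRT CTRL plantaris down to LRT CTRL soleus, of 8.61 CPM, and each pair of neighbours had overlapping ranges.

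Eif4g3 had another order. LRT HI plantaris at 213 ± 35.9 and HRT HI plantaris at 190 ± 56.2 CPM led, and the 2 CTRL groups of the same muscle were last, at 94.99 ± 7.73 in LRT and 95.2 ± 5.02 CPM in HRT. The soleus groups lay between them, at 132 ± 37.9 in HRT CTRL, 129 ± 25.1 in HRT HI, 127 ± 39.1 in LRT HI and 111 ± 9.26 CPM in LRT CTRL. The drop from plantaris HI to soleus, of 58.3 CPM, and that from soleus to plantaris CTRL, of 15.6 CPM, were larger than the larger SD of the neighbouring groups, but neighbouring ranges overlapped throughout. In uncast plantaris Eif4g3 was tightly held, with a coefficient of variation of 8.14% in LRT and 5.28% in HRT, against 16.9% and 29.5% after HI.

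**Figure D1:**
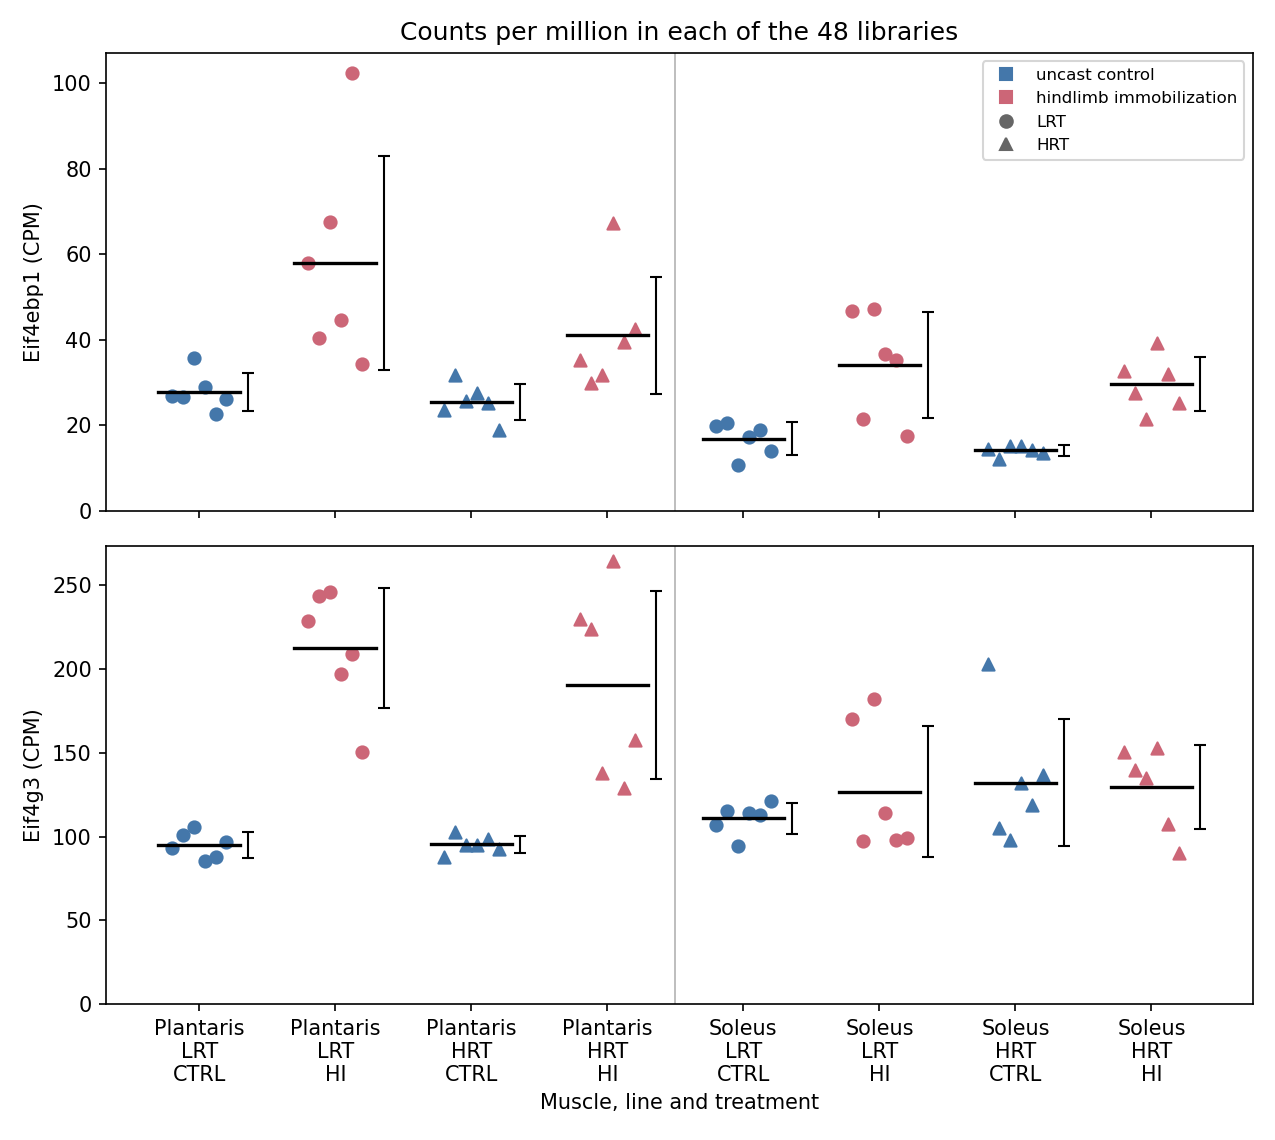
CPM (linear axis from 0) of Eif4ebp1 (top) and Eif4g3 (bottom) in each library, by muscle, line and treatment. Horizontal bars are group means and vertical bars ± SD (n = 6). Eif4ebp1 is higher after HI in both muscles, and Eif4g3 in plantaris, where all 12 HI libraries lie above all 12 CTRL libraries.

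Hindlimb immobilization was compared with CTRL in plantaris first. Both mRNAs rose in both lines. In LRT, Eif4g3 values ran from 85.4 over a median of 95.03 to 106 CPM in CTRL and from 151 over 219 to 246 CPM in HI, so that the groups did not overlap. The log2 fold change was 1.16 (SE 0.173, 95% interval 0.81 to 1.51), with an adjusted p of 7.88e-06 by the quasi-likelihood test of edgeR with Benjamini-Hochberg adjustment, which ranked it 67 of 16960 genes. Eif4ebp1 values ran from 22.7 over 26.7 to 35.8 CPM in CTRL and from 34.3 over 51.3 to 102 CPM in HI. Replicate 5 was the highest, and 5 of the 6 HI rats were above every CTRL rat. The log2 fold change was 1.09 (SE 0.218, 95% interval 0.65 to 1.53, adjusted p = 0.000255). As background, 15.1% of all tested genes were called higher and 13.6% lower in this comparison, and for 4.69% each HI value was above each CTRL value.

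In HRT plantaris, Eif4g3 ran from 87.9 over a median of 94.8 to 103 CPM in CTRL and from 129 over 191 to 264 CPM in HI, again without overlap. Of the 6 HI values 3 lay between 129 and 158 CPM and 3 lay between 224 and 264 CPM. The log2 fold change was 1.00 (SE 0.174, adjusted p = 0.000436), rank 34 of the tested genes. Eif4ebp1 ran from 19.0 over 25.5 to 31.9 CPM in CTRL and from 29.8 over 37.4 to 67.3 CPM in HI, and 4 of 6 HI values were above every CTRL value. Its log2 fold change was 0.74 (SE 0.220, 95% interval 0.29 to 1.18, adjusted p = 0.0253). The call on Eif4ebp1 rested on single libraries, since it was lost without HI replicate 4 (0.53, adjusted p = 0.127), CTRL replicate 6 (0.67, adjusted p = 0.0715) or CTRL replicate 1 (0.71, adjusted p = 0.0514), while that on Eif4g3 held without any 1 library (0.89 to 1.08). Of all tested genes 5.11% were called higher and 5.85% lower, and 3.27% had each HI value above each CTRL value.

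In soleus, HI raised Eif4ebp1 in both lines, and Eif4g3 did not pass the test in either. In HRT, Eif4ebp1 ran from 12.1 over a median of 14.4 to 15.3 CPM in CTRL and from 21.6 over 29.8 to 39.2 CPM in HI, with no overlap. Its log2 fold change was 1.01 (SE 0.225, 95% interval 0.55 to 1.46, adjusted p = 0.00219). In LRT it ran from 10.7 over 18.2 to 20.5 CPM in CTRL and from 17.4 over 35.9 to 47.2 CPM in HI. Here 5 of 6 HI values lay above every CTRL value, while HI replicate 6 lay within the CTRL range. This gave a log2 fold change of 0.97 (SE 0.221, 95% interval 0.52 to 1.41, adjusted p = 0.00302). The call on Eif4ebp1 was kept in both lines without any 1 library. Genes called higher and lower made up 7.36% and 6.58% of those tested in LRT soleus and 7.95% and 8.23% in HRT soleus, where 2.25% had each HI value above each CTRL value. Higher calls made up 52.7%, 46.6%, 52.8% and 49.1% of all calls in LRT plantaris, HRT plantaris, LRT soleus and HRT soleus. With libraries scaled by their totals those shares were 84.7%, 83.4%, 83.0% and 64.1%, and the median log2 fold change of all genes moved to 0.25, 0.17, 0.15 and 0.07. The HI calls on Eif4ebp1 and Eif4g3 were the same under both scalings, while Eif4g3 in HRT soleus, which was not called, changed sign from -0.03 to 0.0334.

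Eif4g3 in soleus had overlapping groups. In LRT the values ran from 94.4 over a median of 114 to 121 CPM in CTRL and from 97.4 over 106 to 182 CPM in HI. Replicates 1 and 3 of HI, at 170 and 182 CPM, stood above all CTRL values, and the other 4 HI rats lay between 97.4 and 114 CPM. The log2 fold change was 0.20 (SE 0.171, 95% interval -0.15 to 0.54, adjusted p = 0.484), and it was 0.0567 without HI replicate 3 and 0.10 without HI replicate 1. With libraries scaled by their totals it was 0.35 (adjusted p = 0.193). In HRT the values ran from 97.6 over 125 to 203 CPM in CTRL and from 90.4 over 137 to 153 CPM in HI. The highest was CTRL replicate 1 at 203 CPM, the library that stood apart above, and the next CTRL value was 137 CPM. Here it was -0.03 on the log2 scale (SE 0.174, 95% interval -0.38 to 0.32, adjusted p = 0.939), and 0.12 without CTRL replicate 1 (adjusted p = 0.662). Without HI replicate 6 it was 0.07 (adjusted p = 0.822) and without HI replicate 5 it was 0.01 (adjusted p = 0.971), so that its sign changed. The intervals leave room for a rise of up to 0.54 in LRT and 0.32 in HRT on the log2 scale.

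The response to HI was then compared between muscles within a line, as the log2 fold change in plantaris minus that in soleus. For Eif4g3 the difference was 0.96 in LRT (SE 0.244, 95% interval 0.47 to 1.46, adjusted p = 0.0306), against a background of 2.18% of genes called in either direction. In HRT it was 1.02 (SE 0.251, 95% interval 0.52 to 1.53), of about the same size, with an unadjusted p of 0.000194 in the edgeR fit and rank 37 of 16960, but its adjusted p was 0.0852, and 0.0943% of genes were called. For Eif4ebp1 the differences were 0.12 (95% interval -0.51 to 0.75, adjusted p = 0.891) in LRT and -0.27 (95% interval -0.91 to 0.38, adjusted p = 0.777) in HRT. Leaving out 1 library moved the LRT value between -0.15 (without plantaris HI replicate 5) and 0.26, with a change of sign also without soleus HI replicate 6, and the HRT value to as low as -0.46 (without plantaris HI replicate 4). Among the other settings the LRT value lay between 0.0434 (no RIN covariate) and 0.19 (library totals), and the HRT value between -0.38 (no RIN covariate) and -0.17 (library totals). The LRT call on Eif4g3 was lost without plantaris CTRL replicate 1, 4, 5 or 6 (0.91 to 0.94), plantaris HI replicate 1 or 3 (0.92 and 0.90), soleus CTRL replicate 6 (0.90) or soleus HI replicate 2 or 4 (0.88 and 0.94), each with an adjusted p between 0.0516 and 0.0848. The HRT difference was called with no RIN covariate (1.03, adjusted p = 0.0365), by DESeq2 (1.03, adjusted p = 0.0168) and with same-numbered libraries of the 2 muscles as a block (0.94, adjusted p = 0.0333).

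**Figure D2:**
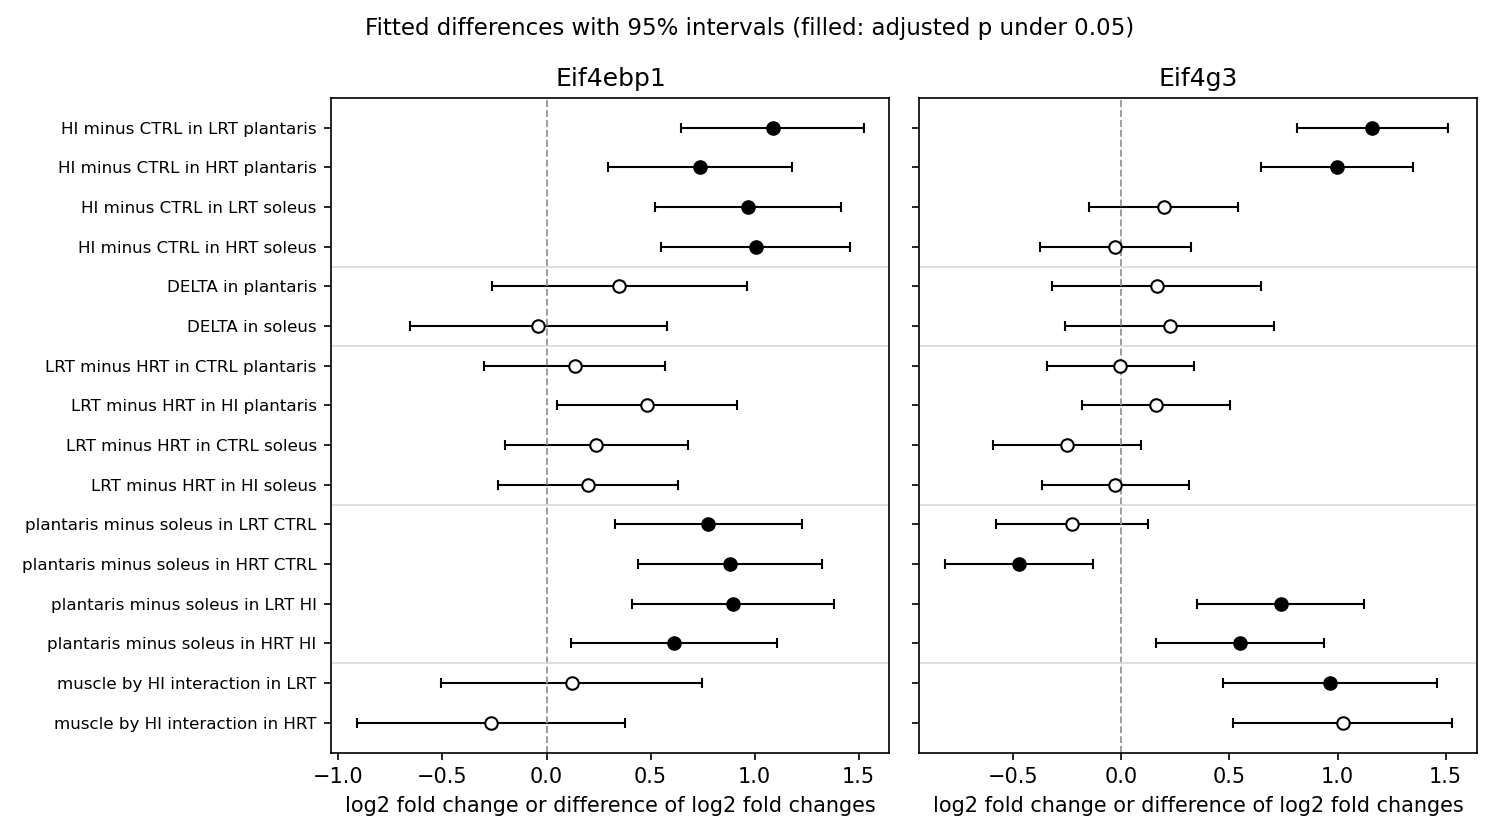
Fitted log2 differences of Eif4ebp1 (left) and Eif4g3 (right) in 16 comparisons, with 95% intervals as horizontal bars. Filled points have an adjusted p under 0.05. The HI effect on Eif4ebp1 is positive in all 4 muscle and line combinations, and that on Eif4g3 is 1.16 and 1.00 in plantaris but 0.20 and -0.03 in soleus.

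The muscles were also compared directly within each line and treatment. Plantaris carried more Eif4ebp1 mRNA than soleus in all 4 comparisons, with a log2 difference of 0.78 in LRT CTRL (adjusted p = 0.00546), 0.88 in HRT CTRL (adjusted p = 0.00123), 0.90 in LRT HI (adjusted p = 0.00374) and 0.61 in HRT HI (adjusted p = 0.0489). Genes called higher in plantaris made up 17.0%, 18.9%, 15.8% and 17.0% of those tested in the same order. Eif4g3 had another pattern without a cast. It was lower in plantaris than in soleus in HRT CTRL, by a log2 difference of -0.47 (adjusted p = 0.0241), where 19.9% of genes were called lower, and the difference was -0.23 in LRT CTRL (adjusted p = 0.347) and -0.36 there with library totals (adjusted p = 0.153). After HI it was higher in plantaris, with a difference of 0.74 for LRT at an adjusted p of 0.00269 and 0.55 for HRT at 0.0235.

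Several of these calls depended on single libraries of HRT. The lower Eif4g3 of uncast HRT plantaris was -0.29 (adjusted p = 0.178) without soleus CTRL replicate 1 and -0.44 (adjusted p = 0.0525) without plantaris CTRL replicate 1. The higher Eif4g3 of HRT HI plantaris was lost without plantaris replicate 2 (0.50, adjusted p = 0.0510), plantaris replicate 4 (0.45, adjusted p = 0.0632) or soleus replicate 6 (0.44, adjusted p = 0.0809). The higher Eif4ebp1 of HRT HI plantaris was lost without plantaris HI replicate 4, 5 or 6 or soleus HI replicate 2, 3, 5 or 6, with differences between 0.44 and 0.67 and an adjusted p of up to 0.151. The last call was also lost with library totals (adjusted p = 0.0953), no filter (adjusted p = 0.0712), no RIN covariate (adjusted p = 0.0799) and limma-voom (adjusted p = 0.0545), and that on Eif4g3 in HRT HI with library totals (adjusted p = 0.0780). The comparisons between muscles and the muscle by HI differences set libraries of the same animals side by side as if they were independent. The labels do not say which 2 libraries come from 1 rat.

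LRT and HRT were compared under the same treatment, and the HI responses of the lines against each other (DELTA, the log2 fold change in LRT minus that in HRT). Neither gene passed the test in any of these comparisons. The largest line difference was that of Eif4ebp1 in HI plantaris, where LRT was higher by 0.48 on the log2 scale (SE 0.214, 95% interval 0.05 to 0.92, adjusted p = 0.217), with 2.42% of genes called in either direction. Without HRT HI replicate 4, at 67.3 CPM the highest of its group, that difference was 0.70 with an adjusted p of 0.0293, and without LRT HI replicate 5, at 102 CPM the highest of the other group, it was 0.25 with an adjusted p of 0.539. In CTRL plantaris it was 0.14 (adjusted p = 0.885), in CTRL soleus 0.24 (adjusted p = 0.649) and in HI soleus 0.20 (adjusted p = 0.6003), where 0.525%, 1.45% and 12.2% of genes were called. These 3 values went down to 0.0345 and 0.12 with library totals and to 0.12 with limma-voom. For Eif4g3 the line differences were -0.00426 in CTRL plantaris, 0.16 in HI plantaris, -0.25 in CTRL soleus and -0.03 in HI soleus, with adjusted p between 0.508 and 0.997. The CTRL soleus value was -0.0891 (adjusted p = 0.914) without HRT CTRL replicate 1, the library that stood apart. Leaving out 1 library moved other line differences without a change of sign or a call. For Eif4ebp1 they ran from 0.0531 to 0.19 in CTRL plantaris, 0.15 to 0.34 in CTRL soleus and 0.0739 to 0.34 in HI soleus. For Eif4g3 in HI plantaris the range was 0.0712 to 0.28. Its sign changed in CTRL plantaris (-0.0332 to 0.0279) and in HI soleus (-0.16 to 0.0457).

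DELTA in plantaris was 0.35 for Eif4ebp1 (95% interval -0.26 to 0.96, adjusted p = 0.872) and 0.16 for Eif4g3 (95% interval -0.32 to 0.65, adjusted p = 0.929). In soleus it was -0.04 (95% interval -0.66 to 0.58, adjusted p = 0.984) and 0.22 (95% interval -0.26 to 0.71, adjusted p = 0.809). Leaving out 1 library moved DELTA of Eif4ebp1 in plantaris to between 0.11 (without LRT HI replicate 5) and 0.56 (without HRT HI replicate 4), and that of Eif4g3 to between 0.0725 (without HRT HI replicate 5) and 0.28 (without HRT HI replicate 4). In soleus DELTA of Eif4g3 lay between 0.0586 (without HRT CTRL replicate 1) and 0.31, and that of Eif4ebp1 between -0.16 and 0.10. In plantaris edgeR called 0% of genes, although 1060 had an unadjusted p under 0.05, and limma-voom called 1 and DESeq2 0 genes. In soleus 0.0295% were called. The intervals include line differences in the response of up to 0.96 for Eif4ebp1 and 0.71 for Eif4g3, so that equal responses were not shown. In data simulated for DELTA in plantaris, 52% of changes of 1 and 21% of changes of 0.6 on the log2 scale were recovered. There all groups had the level of LRT CTRL plantaris, and 100 genes per size of change were altered in LRT HI plantaris only. The real data hold many more differences, so these rates are not those of Eif4ebp1 and Eif4g3.

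**Figure D3:**
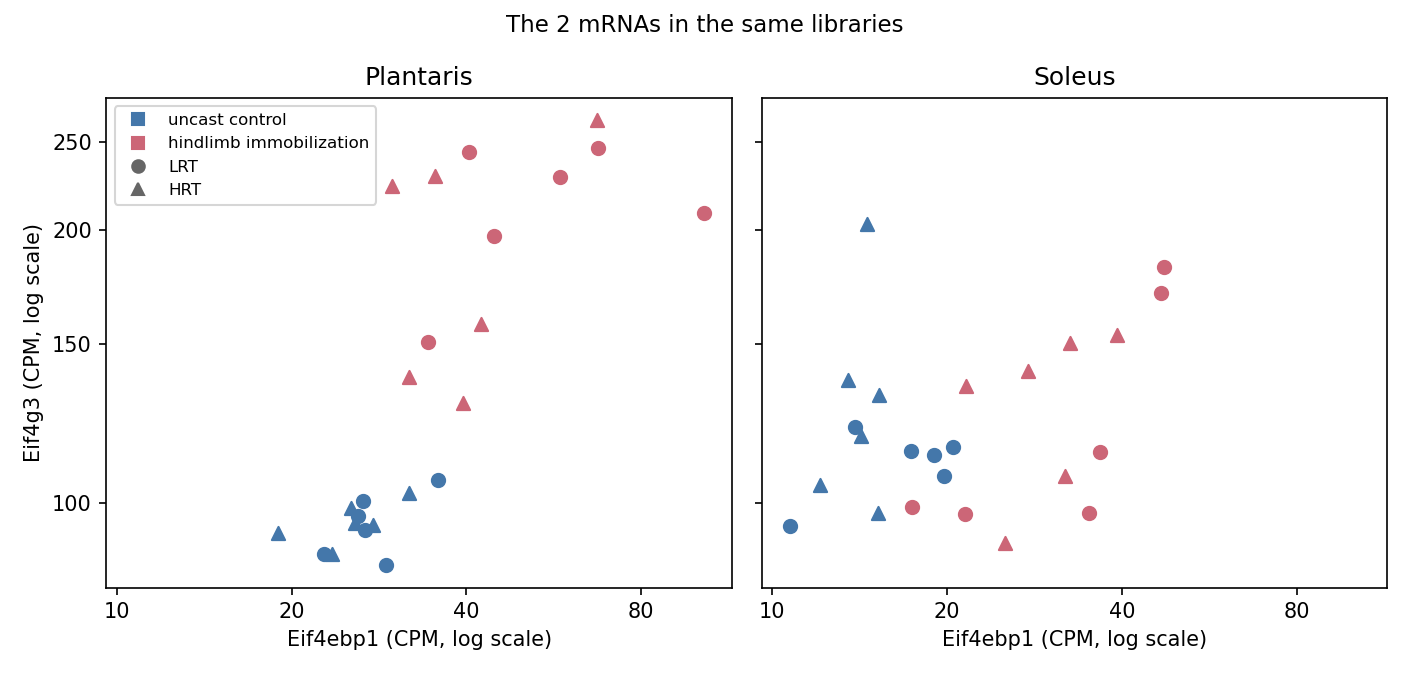
Eif4g3 against Eif4ebp1 in the same library (CPM, both axes logarithmic), in plantaris (left) and soleus (right). Points are libraries, with colour for treatment and shape for line. In plantaris the HI libraries lie above and mostly to the right of CTRL, and in soleus they lie mostly to the right, with Eif4g3 between 90.4 and 182 CPM.

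The 2 mRNAs were then compared across the rats of a group. With group means subtracted, Pearson's r of log2 CPM was 0.46 and Spearman's rho 0.38 over the 48 libraries, as a description over libraries of which pairs share an animal. It was 0.39 in plantaris and 0.53 in soleus (24 libraries each). Within single groups Pearson's r was positive in all 8 groups, between 0.20 in HRT CTRL soleus and 0.78 in LRT HI soleus (n = 6 each). In LRT HI soleus the 2-sided exact permutation test over pairings gave p = 0.0847, with an adjusted p of 0.522 over the 8 groups. Spearman's rho was 0.83 there (exact permutation p = 0.0583, adjusted p = 0.363), and it was between 0.03 and 0.71 in the other groups. Without the 2 libraries farthest from the median of Eif4ebp1, r ranged from -0.90 to 0.99, so that the values of single groups rest on few rats.

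Other genes of the pathway were described from 4 lists, as far as a symbol could be paired with an identifier. Symbols came only from the study's tables of differentially expressed genes, so every gene that could be paired had been called there in some comparison, and the counts below say nothing of the lists as a whole. This held for 4 of 20 genes of eIF4F and its regulators, 1 of 26 other initiation factors, 10 of 27 genes of insulin, PI3K and mTORC1 signalling and 7 of 16 genes of the integrated stress response. The shares of all genes called higher and lower in each comparison are those given above.

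Among eIF4F and its regulators, 3 of 4 paired genes rose in LRT plantaris, 2 in HRT plantaris, 2 in LRT soleus and 2 in HRT soleus, where 1 fell. Eif4ebp1 and Eif4g3 are 2 of the 4, and without them 1, 0, 1 and 1 of 2 genes rose. The median log2 fold change of the 4 genes was 1.06, 0.62, 0.53 and 0.31, with 0.01 or 0.02 over all tested genes, but since the 4 have a symbol only through the study's own calls, nothing is read from this difference. Apart from Eif4ebp1 and Eif4g3, the gene that rose was Cpeb1, which encodes an RNA-binding protein that controls the poly(A) tails and translation of selected mRNAs. It rose from 1.29 ± 0.226 to 2.68 ± 0.239 CPM in LRT plantaris (log2 fold change 1.04, adjusted p = 0.000127), by 0.86 in LRT soleus (adjusted p = 0.00276) and by 0.65 in HRT soleus (adjusted p = 0.0170), and was at 0.50 in HRT plantaris (adjusted p = 0.0865). The HRT soleus call was lost without HI replicate 4 (0.51, adjusted p = 0.0609). LOC100912571, annotated as like the scaffold eIF4G1, fell in HRT soleus from 21.7 ± 4.44 to 6.48 ± 7.01 CPM (log2 fold change -1.73, adjusted p = 0.00407). It may share reads with Eif4g1, and with soleus fitted alone its adjusted p was 0.0505. The HRT plantaris count of 2 was 1 without HI replicate 4, CTRL replicate 1 or CTRL replicate 6. Eif3h, a subunit of eIF3 and the only other initiation factor with an identifier, passed the test in none of the 4 comparisons by edgeR, limma-voom or DESeq2 and had an unadjusted p under 0.05 in 0, with log2 fold changes between -0.81 and 0.60.

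Upstream of mTORC1, the adaptor Irs1 fell in all 4 comparisons. Its log2 fold change was -0.86 in LRT plantaris (adjusted p = 0.0140), -1.17 in HRT plantaris (adjusted p = 0.00505), -1.14 in LRT soleus (adjusted p = 0.00348) and -1.67 in HRT soleus (adjusted p = 8.64e-05). Without HI replicate 1 the LRT plantaris value was -0.72 (adjusted p = 0.0567). Its relative Irs2 fell in soleus, with -1.64 for LRT at an adjusted p of 0.00491 and -1.88 for HRT at 0.00142. In plantaris Irs2 was at 0.23 for LRT (adjusted p = 0.699) and -0.64 for HRT (adjusted p = 0.298). A muscle by HI difference is not given for the genes of this list. Igf1r, the receptor of insulin-like growth factor 1, rose in plantaris, with 1.05 for LRT at an adjusted p of 1.07e-05 and 0.73 for HRT at 0.00349, and was at 0.29 and -0.16 in soleus (adjusted p = 0.214 and 0.533). Foxo1, a transcription factor that AKT holds out of the nucleus, likewise rose in plantaris, with 1.15 for LRT at an adjusted p of 0.000447 and 1.12 for HRT at 0.00395, and was at 0.14 and 0.13 in soleus (adjusted p = 0.757 and 0.776). Without LRT HI replicate 5 its LRT plantaris value was 0.75 (adjusted p = 0.00675).

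Pik3ip1, an inhibitor of PI3K, rose in soleus from 20.8 ± 7.92 to 77.9 ± 33.6 CPM in LRT (log2 fold change 1.90, adjusted p = 9.06e-05) and from 13.4 ± 2.17 to 60.7 ± 16.8 CPM in HRT (2.17, adjusted p = 5.21e-06). In plantaris Pik3ip1 was at 0.13 for LRT (adjusted p = 0.768) and 0.62 for HRT (adjusted p = 0.151). The kinase gene Rps6ka5, of the MSK family, rose in all 4 comparisons, by 1.02 in LRT plantaris, 1.01 in HRT plantaris, 0.86 in LRT soleus and 0.94 in HRT soleus (adjusted p between 0.000704 and 0.00872). Without LRT HI soleus replicate 1 its LRT soleus value was 0.66 (adjusted p = 0.05003). Rps6ka2, of the RSK family of kinases, fell in LRT plantaris with a log2 fold change of -1.59 (adjusted p = 4.96e-05), as did Pik3cd, a catalytic subunit of PI3K, with -0.99 (adjusted p = 0.000560). In HRT plantaris they were at -0.71 (adjusted p = 0.0734) and -0.36 (adjusted p = 0.274). Their DELTA in plantaris was -0.88 (adjusted p = 0.775) and -0.63 (adjusted p = 0.799). Pik3r1, the regulatory subunit, rose by 1.25 in HRT soleus (adjusted p = 0.000115). It was also called at 0.71 in HRT plantaris (adjusted p = 0.0232) and at 0.68 in LRT soleus (adjusted p = 0.0243). The HRT plantaris call of Pik3r1 was lost without CTRL replicate 1, 4 or 6 or HI replicate 2 or 4 (0.58 to 0.67), and the LRT soleus call without CTRL replicate 3 or 6 or HI replicate 1, 3 or 4 (0.60 to 0.63) or with soleus fitted alone (0.61, adjusted p = 0.0923). In all, 3 of 10 paired genes of this list rose and 3 fell in LRT plantaris, 4 rose and 1 fell in HRT plantaris, and 3 rose and 2 fell in soleus of each line. The LRT soleus count of 5 was 3 without HI replicate 1.

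The integrated stress response slows initiation through eIF2, beside the eIF4F step. Chac1, a glutathione-degrading target of this response, rose in soleus from 1.61 ± 0.650 to 8.07 ± 3.75 CPM in LRT (log2 fold change 2.35, adjusted p = 0.000166) and from 1.44 ± 0.899 to 8.11 ± 2.68 CPM in HRT (2.51, adjusted p = 5.35e-05), and by 1.27 in LRT plantaris (adjusted p = 0.00472). The transcription factor gene Atf3 fell in soleus, with -2.63 for LRT at an adjusted p of 0.000615 and -2.03 for HRT at 0.00547, and Atf5 fell in HRT soleus, with -1.43 (adjusted p = 0.000326). In LRT plantaris Ppp1r15a, a phosphatase subunit that acts on eIF2, rose by 1.23 (adjusted p = 0.000432) and the amino acid transporter gene Slc7a5 by 1.30 (adjusted p = 0.00132), while Stc2, a secreted glycoprotein gene, fell, with -1.27 (adjusted p = 0.000129). Psat1, of serine synthesis, fell there, with -1.13 (adjusted p = 0.0127), but was under 1 CPM on average in both groups, and without CTRL replicate 1 its value was -0.91 (adjusted p = 0.0540). Stc2 in LRT soleus (-0.71, adjusted p = 0.0414) and Ppp1r15a in HRT soleus (-0.74, adjusted p = 0.0461) were near the threshold. The Stc2 call was lost without CTRL replicate 1, 3, 5 or 6 or HI replicate 1, 2, 3 or 5 (-0.74 to -0.55), and that of Ppp1r15a without CTRL replicate 1, 2, 4, 5 or 6 or without any 1 HI replicate (-0.77 to -0.65). Stc2 also lost its call with library totals (adjusted p = 0.0827), no filter (adjusted p = 0.0695) and soleus fitted alone (adjusted p = 0.0584), and Ppp1r15a with library totals (adjusted p = 0.0832) and no filter (adjusted p = 0.0648). By count, 3 of 7 rose and 2 fell in LRT plantaris, 1 rose and 2 fell in LRT soleus, and 1 rose and 3 fell in HRT soleus. In HRT plantaris edgeR called 0 of 7, as did limma-voom and DESeq2, with an unadjusted p under 0.05 in 0. Compared directly between the lines by DELTA in edgeR, 0 paired genes of each of the 4 lists were called in plantaris, and 0 in soleus. Unlike counts of calls in LRT and HRT therefore do not show that the lines differed in their response.

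**Figure D4:**
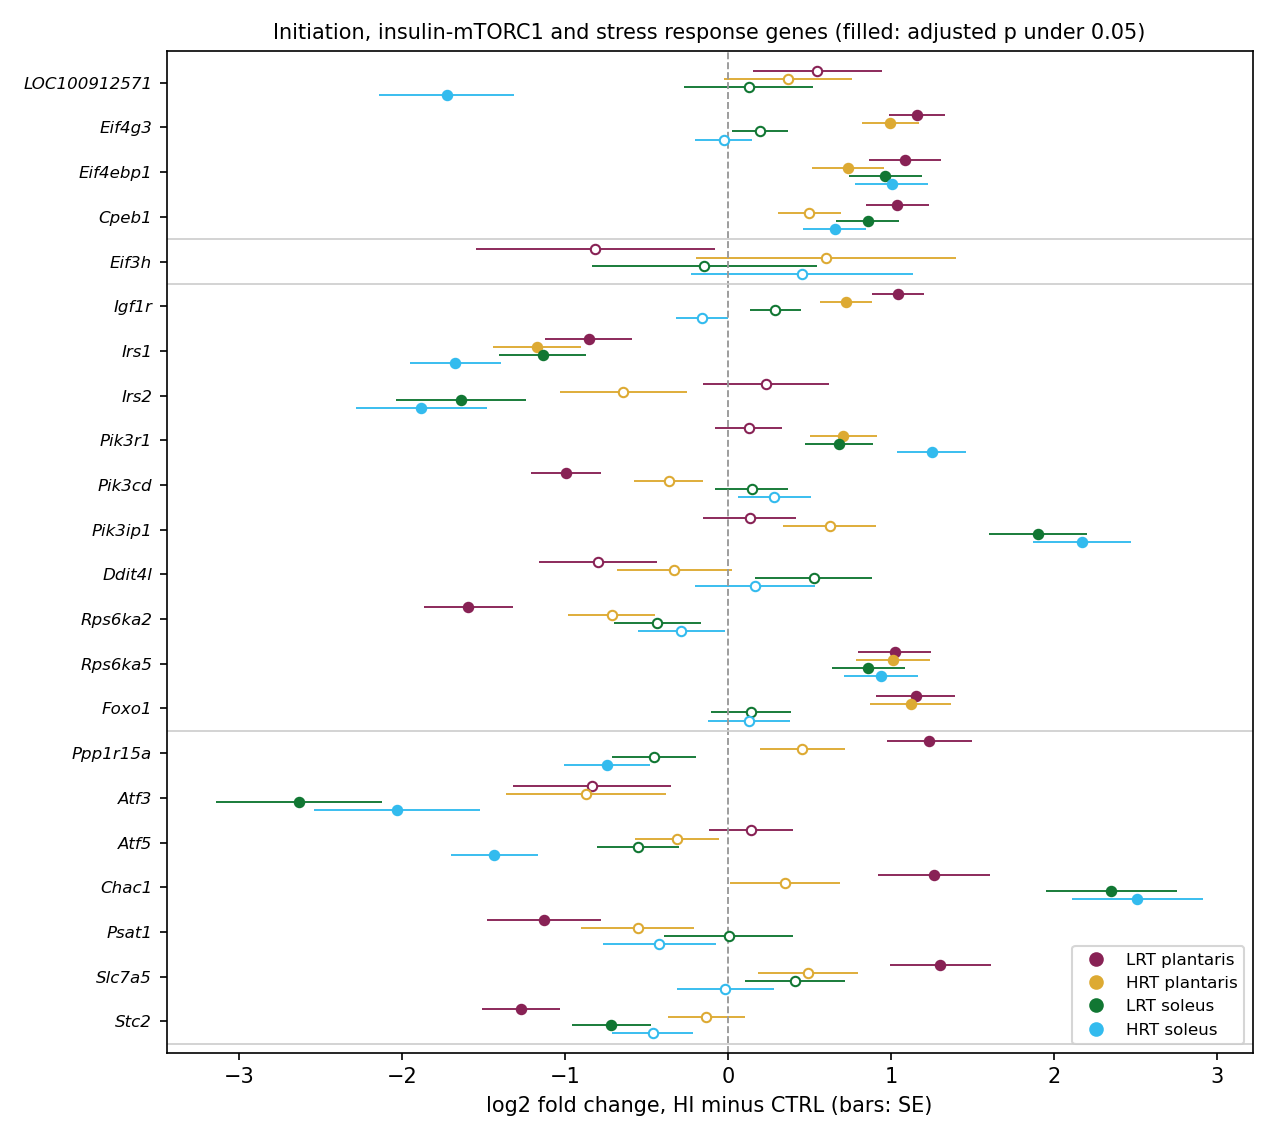
Log2 fold changes of HI against CTRL for the paired genes of the 4 lists, separated by horizontal lines, in the 4 muscle and line combinations (colours). Bars are SE, and filled points have an adjusted p under 0.05. Irs1 lies between -0.86 and -1.67, Rps6ka5 between 0.86 and 1.02, and Foxo1, Igf1r and Eif4g3 are filled in plantaris only.

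Summed levels of markers of fibre types and of other cells were set side by side for CTRL and HI. No test was run on these sums, and many of their ranges overlapped. The markers, too, have a symbol only through the study's own calls in these data. A shift of a sum with HI thus follows in part from that choice, and no change of cell content is read from it. In LRT plantaris the summed level of the 4 measured of 6 fast fibre markers was 14235.5 to 18674.5 CPM in CTRL and 5091 to 11568 CPM in HI, and in HRT plantaris 10941 to 13471 and 5977 to 11635 CPM. The 4 fibroblast markers summed to 358 to 990 CPM in CTRL and 133 to 567 CPM in HI in LRT plantaris, and to 399 to 915 and 153 to 504 CPM in HRT plantaris. In soleus the 4 measured of 5 slow fibre markers summed to 2457 to 4470 CPM in CTRL and 381 to 3469 CPM in HI of LRT, and to 1664 to 3447 and 437 to 2689 CPM in HRT. The 4 immune markers were at 10.5 to 16.1 CPM in CTRL and 23.4 to 35.3 CPM in HI of HRT soleus, and at 9.32 to 13.5 and 12.2 to 18.9 CPM in LRT soleus. In plantaris they were at 10.5 to 25.5 CPM in CTRL and 14.8 to 26.96 CPM in HI of HRT, and at 8.94 to 13.4 and 10.4 to 20.1 CPM in LRT. The fibroblast markers summed to 268 to 2195 CPM in CTRL and 329 to 714 CPM in HI of HRT soleus, and to 271 to 607 and 118 to 681 CPM in LRT soleus. The 4 red blood cell markers summed to 158 to 607 CPM in CTRL and 217 to 10444 CPM in HI of HRT soleus (means 321 and 2475), and to 212 to 959 and 479 to 1436 CPM in LRT soleus (means 623 and 935). In plantaris they summed to 261 to 402 CPM in CTRL and 236 to 3034 CPM in HI of HRT (means 324 and 813), and to 278 to 1111 and 180 to 494 CPM in LRT (means 523 and 329). Slow fibre markers in plantaris summed to 430 to 616 CPM in CTRL and 151 to 504 CPM in HI of HRT (means 516 and 286), and to 326 to 599 and 111 to 587 CPM in LRT (means 489 and 263). Fast fibre markers in soleus summed to 685 to 1390 CPM in CTRL and 731 to 1277 CPM in HI of HRT, and to 929 to 2130 and 927 to 1866 CPM in LRT. No measured marker was at 0 in any library, and the lowest was Pvalb in soleus at 0.125 CPM. The part of any differences in these sums in the values of Eif4ebp1 and Eif4g3 was not tested.

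The genes whose log2 CPM ran most like that of each mRNA were taken from 1141 genes with a symbol, over all 48 libraries, as a description across libraries that share muscle, line and treatment. These candidates have a symbol only through the study's own calls, so a high r over all libraries is in part built in. Genes without a symbol could not be named, and no theme is read from the names below. For Eif4ebp1 these were Map1lc3b, which encodes the autophagosome protein LC3B, with Pearson's r of 0.892, and Fbxo31, Pnpla7, Map1lc3b2 and Gpank1, with r between 0.861 and 0.866. Map1lc3b and Map1lc3b2 are near-identical copies whose reads may be split between them. For Eif4g3 they were Ulk1, a kinase that starts autophagy, with r of 0.875, Nploc4, a cofactor of the p97 ATPase, with 0.871, Fbxo32, the muscle ubiquitin ligase atrogin-1, with 0.860, the helicase gene Dhx37 with 0.854 and AABR07016559.1 with 0.852. With group means subtracted, so that only the spread among rats of a group was left, Pnpla7 (0.716) and Map1lc3b (0.699) stayed among the first 5 for Eif4ebp1, led by Golm1 (0.733), and Ulk1 (0.807) stayed for Eif4g3, behind Mapre3 (0.843) and Ddi2 (0.819).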

How the data were processed

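RNA of plantaris and soleus was sequenced in 48 libraries of 8 groups, taken from the labels. The authors quantified reads with Salmon 0.9.1, as their processing notes name it, against rat transcripts of build Rnor_6.0, and tximport gave gene totals with a length scaling. Library totals were 26.8 to 36.4 M. The table the authors deposited therefore holds estimated counts, not normalized across samples, of which 66.0% were not whole numbers before being rounded here.

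Genes were filtered by filterByExpr, libraries were scaled by TMM, and all 48 were fitted in edgeR 4.0.16 (R 4.3.3) with the 8 groups and RIN as a covariate. Quasi-likelihood tests were adjusted by Benjamini-Hochberg over 16960 genes, and a gene was called at an adjusted p under 0.05. Levels are CPM of TMM-scaled totals, with a prior count of 2 on the log2 scale. Standard errors come from the fold change and its F statistic. No library was left out. P-values measure the spread between rats of the labelled groups. Library pairs within a group differed by more than counting noise, with a mean chi-square per gene of 12.0 or more.

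Of the 31998 identifiers 3.59% were paired with a symbol, through the study's tables. Those tables also hold the authors' fold changes, which were not used. The labels and the study's methods name different library kits, and whether counting used strand is not known. The fit was tested on simulated data of 16835 genes, with equal levels in all groups except for genes altered in LRT HI plantaris. For the LRT plantaris comparison 77% of changes of 1 and 46% of changes of 0.6 on the log2 scale were recovered, with 6.11% false calls.

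The genes named are Eif4ebp1 and Eif4g3, the members of 4 pathway lists with an adjusted p under 0.05 in the comparison described, and the 5 genes most like each of the pair. Outside this rule, Eif3h is named as the only paired member of its list, and fibre markers as the check of the labelled muscle. The members and lists were chosen with earlier results of these data known. The alternatives were size factors of DESeq2, library totals, DESeq2 1.42.0, limma-voom (limma 3.58.1; the study's methods name voom and limma), no filter, no RIN, each muscle alone, the replicate number or the rat as a block, and each library left out. Figures were drawn with matplotlib 3.10.9 in Python 3.11.15. Proteins and myosin heavy chain genes were not analysed here, and of positions only the chromosomes and the Eif4g3 start regions were used.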

Additional observations from a re-analysis of the deposited data

Results flagged for a closer look

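Among the 16 sets of 6 libraries examined, of which chance flags about 1 in 20, 2 held a library far from the others. Eif4ebp1 in HRT HI plantaris was at 67.3 CPM in replicate 4, where the next value was 42.4 CPM. Eif4g3 in HRT CTRL soleus was at 203 CPM in replicate 1, where the next value was 137 CPM. The effect of HI on Eif4g3 differed between plantaris and soleus of LRT by 0.96 on the log2 scale. The interaction term of the edgeR fit gave an adjusted p of 0.0306, and 2.18% of genes were called. This call was lost in 9 of 24 fits with 1 library left out. In HRT the difference was 1.02 (adjusted p = 0.0852), and it passed the threshold under 4 of 9 other settings. In LRT, 6 of 6 plantaris HI values against 2 of 6 soleus HI values lay above every CTRL value of their muscle and line. For 4.69% of genes each HI value was above each CTRL value in LRT plantaris.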

How the results depend on the processing

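The 2 genes were refitted in 16 comparisons, each under 9 other settings, which gave 288 values, of which 276 kept their direction and their side of the threshold. No call on the 2 genes changed with size factors of DESeq2, nor with each muscle fitted alone, which could be run for 20 of the 32 values. With library totals in place of TMM the median log2 fold change of all genes moved to as much as 0.25, from 0.01 (HI in LRT plantaris). Under them the Eif4g3 difference of HI in HRT soleus was 0.0334 and the Eif4ebp1 DELTA in soleus 0.0389, both of reversed sign with no call, and plantaris minus soleus in HRT HI lost its call for Eif4ebp1 (0.55, adjusted p = 0.0953) and Eif4g3 (0.49, adjusted p = 0.0780). That Eif4ebp1 call was also lost with no filter (0.60), no RIN covariate (0.47) and limma-voom (0.58), with an adjusted p between 0.0545 and 0.0799. With no filter the Eif4g3 line difference in CTRL plantaris was 0.00655, of reversed sign. The Eif4g3 muscle by HI difference in HRT passed the threshold with no RIN covariate (1.03) and by DESeq2 (1.03). It also passed with same-numbered libraries of both muscles as a replicate block, in edgeR (0.94) and in limma-voom (0.96). The adjusted p of these fits lay between 0.0168 and 0.0365. The cause of these changes was not tested. Over all genes, the count of calls moved by more than 1.5 times as follows. Library totals gave 3019 against 1859 for HI in HRT plantaris, 3 against 5 for DELTA in soleus, and 234 against 410 and 558 against 246 for the lines in HI plantaris and CTRL soleus. With no filter there were 236 against 410 for the lines in HI plantaris, and 165 against 370 and 1 against 16 for muscle by HI in LRT and HRT. With no RIN covariate there were 9 against 5 for DELTA in soleus and 64 against 16 for muscle by HI in HRT. DESeq2 gave 31 against 5 for DELTA in soleus, 160 against 89, 690 against 410 and 434 against 246 for the lines in CTRL plantaris, HI plantaris and CTRL soleus, and 702 against 370 and 79 against 16 for muscle by HI in LRT and HRT. Library totals also moved the share of higher calls from 50.6% to 24.0%, 37.8% to 9.68% and 53.9% to 39.7% for the lines in CTRL plantaris, CTRL soleus and HI soleus, from 52.0% to 33.1% and 48.6% to 29.3% for plantaris against soleus in LRT CTRL and HRT CTRL, and from 54.6% to 76.6% and 43.8% to 78.6% for muscle by HI in LRT and HRT. The labels do not say that the same number in plantaris and soleus marks the same rat. After group means were taken off, libraries with the same number correlated above 0.1 in 22 of 24 pairs (-0.05 to 0.39), and 22 of 24 libraries correlated best with their own number, as a hint from the data. With same-numbered libraries of both muscles as a replicate block, 1 of 12 calls changed, that on Eif4g3 for muscle by HI in HRT (0.94, adjusted p = 0.0333, against 0.0852). With the number alone as a factor across all groups, no call changed. Leaving out 1 library at a time gave 480 values for the 2 genes, of which 429 kept direction and side of the threshold, 24 lost the call, 1 gained it and 26 small differences changed sign. The ranges of the results that changed were 0.53 to 0.81 for Eif4ebp1 of HI in HRT plantaris, 0.25 to 0.70 for its line difference in HI plantaris, 0.44 to 0.69 for its muscle difference in HRT HI, -0.16 to 0.10 for its DELTA in soleus and -0.15 to 0.26 for its muscle by HI difference in LRT. For Eif4g3 they were -0.10 to 0.12 for HI in HRT soleus, -0.0332 to 0.0279 and -0.16 to 0.0457 for the line differences in CTRL plantaris and HI soleus, -0.54 to -0.29 and 0.44 to 0.65 for the muscle differences in HRT CTRL and HRT HI, and 0.86 to 1.11 for the muscle by HI difference in LRT. The count of called eIF4F genes in HRT plantaris ranged from 1 to 3 and that of the insulin list in LRT soleus from 3 to 5. All list counts kept within 1.5 times the reported count under each other setting. Of 703 values for 37 other gene and comparison pairs named in the text, 663 kept their call and 40 lost it, and none of these reversed. Depth was 26.8 M estimated counts or more in each library, and the lowest count of Eif4ebp1 in any library was 331.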
